A study of Mus musculus with 12 samples.

Results

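The axon guidance ligands and receptors were taken by gene name as the semaphorins of classes 3 to 7, plexins, neuropilins, Slits, Robos, netrins, netrin-Gs, Unc5 receptors, *Dcc*, ephrins and Eph receptors. This rule found 63 of the 18903 genes in the count table. They were 6 class 3 semaphorins, 13 membrane-bound semaphorins, 2 neuropilins, 9 plexins, 3 netrins, 2 netrin-Gs, 2 Unc5 receptors, 3 Slits, 3 Robos, 5 ephrin-As, 3 ephrin-Bs, 6 EphA receptors and 5 EphB receptors. The remaining member was *Plxna4os1*, a non-coding RNA antisense to a plexin gene that carries a matching name. *Dcc*, *Unc5a*, *Unc5d* and *Robo4* were not analysed here. RNA-seq had been performed on primary astrocyte cultures grown from mouse brains taken at postnatal days 1, 6 and 8 (P1, P6 and P8), 2 libraries having been made per genotype and age. The purpose was to compare the transcriptomes of astrocytes with and without RACK7, a reader of histone marks encoded by *Zmynd8*. Mice referred to as WT carried hGFAP-Cre with unmodified *Rack7* alleles. *Rack7*-cKO mice carried the same hGFAP-Cre with both alleles floxed around a pair of early exons, so that Cre was present in every group. The human GFAP promoter of this transgene acts in embryonic neural stem cells of the dorsal forebrain, which form neurons as well as glia, so cells of other origins in a culture would keep the gene. Mice of both sexes on a line made in C57BL/6 zygotes were used, the meninges were removed before dissociation, and the flasks were shaken to detach microglia and oligodendrocytes. Cells were grown for days before the shaking and again after it, until confluent. Every age and time point below is thus the day on which the brain was taken, not the time in culture, and each day is a separate set of cultures. The labels call the libraries biological replicates without naming animals or cultures, so the p-values measure the spread between these libraries.

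Guidance molecules steer growing axons and migrating cells by attraction or repulsion. Netrins are secreted ligands that attract through DCC and repel through UNC5 receptors, Slits repel through ROBO receptors, and semaphorins act through plexins, with neuropilins as the binding partners of most class 3 members. Ephrins stay attached to the cell surface and engage Eph receptor tyrosine kinases on neighbouring cells, so that both cells can signal. Astrocytes express many of these ligands, and Eph receptors and ephrins are also used at contacts between astrocytes, synapses and vessels.

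The 250 bases before the start site of 4 members are shown first, because *Sema7a* and *Unc5b* were the members that passed the test below as higher with the label cKO at all 3 time points, and *Epha3* and *Sema3d* had some of the largest differences in the other direction. They were read from RefSeq on GRCm38.p6, at chr9:57939862-57940111 on the + strand for *Sema7a*, chr10:60831582-60831831 on the - strand for *Unc5b*, chr16:63864176-63864425 on the - strand for *Epha3* and chr5:12382916-12383165 on the + strand for *Sema3d*. Capitals mark CG, the dinucleotide at which vertebrate DNA is methylated.
Sema7a: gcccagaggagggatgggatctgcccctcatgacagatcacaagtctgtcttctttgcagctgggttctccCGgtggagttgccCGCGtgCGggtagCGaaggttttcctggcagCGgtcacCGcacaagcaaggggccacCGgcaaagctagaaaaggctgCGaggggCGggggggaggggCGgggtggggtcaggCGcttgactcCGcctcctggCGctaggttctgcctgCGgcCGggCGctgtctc
Unc5b: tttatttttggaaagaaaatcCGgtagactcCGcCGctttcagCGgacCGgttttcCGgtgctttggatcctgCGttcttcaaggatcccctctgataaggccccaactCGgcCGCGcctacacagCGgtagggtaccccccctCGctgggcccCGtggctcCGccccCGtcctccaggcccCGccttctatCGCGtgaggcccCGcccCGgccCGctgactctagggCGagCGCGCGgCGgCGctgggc
Epha3: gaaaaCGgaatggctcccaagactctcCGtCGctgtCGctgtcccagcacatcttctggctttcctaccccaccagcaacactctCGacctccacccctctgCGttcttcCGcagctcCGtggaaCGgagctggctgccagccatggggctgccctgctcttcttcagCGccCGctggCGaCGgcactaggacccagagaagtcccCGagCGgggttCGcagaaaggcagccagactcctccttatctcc
Sema3d: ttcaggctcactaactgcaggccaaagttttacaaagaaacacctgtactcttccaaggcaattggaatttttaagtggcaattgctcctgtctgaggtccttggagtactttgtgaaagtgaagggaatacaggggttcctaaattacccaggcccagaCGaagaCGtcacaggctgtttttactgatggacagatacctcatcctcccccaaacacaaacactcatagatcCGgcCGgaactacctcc
CG occurred 17 times in the stretch of *Sema7a*, 27 times in that of *Unc5b*, 16 times in that of *Epha3* and 4 times in that of *Sema3d*. The RefSeq table held a promoter for 54 of the 63 members. In windows from 250 bases before to 50 bases after the first listed start, 45 of these 54 (83.3%) held CG 10 or more times, against 43.9% of all 27025 genes in the table, and the medians were 23 and 7. At least 1 CG was found in all 54 member windows and in 94.2% of all windows. CG-rich and CG-poor starts were thus both found among the members with large differences. This describes the letters only.

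Library totals ran from 54413504 to 89183250 counts. Levels are given in CPM, the count of a gene rescaled to a common library size (edgeR's cpm) after TMM normalization. *Zmynd8* had 136 and 136 CPM in P1 WT against 213 and 216 CPM in P1 cKO, and it was also higher with the label cKO at P6 and P8 (log2 fold change 0.65, 1.04 and 0.70). A count over the whole gene does not show whether the floxed exons were present, so it checks no label, and each direction below is one between libraries as labelled. Of 12 astrocyte markers, 11 were in the table and none of these was at 0, with summed levels of 2401 and 2455 CPM in the P1 WT libraries, 2272 and 2316 in P1 cKO, 1673 and 1878 in P6 WT, 1543 and 1695 in P6 cKO, 1652 and 2042 in P8 WT and 772 and 754 in P8 cKO. The fibroblast marker *Lum* had 0 CPM in both P6 cKO libraries, against 7.21 and 8.57 in P6 WT. None of the 8 fibroblast markers, all in the table, was at 0 in all libraries. Their sum was 404 and 418 CPM in P1 WT, 2526 and 2499 in P1 cKO, 6577 and 6639 in P6 WT, 2647 and 2468 in P6 cKO, 26256 and 26142 in P8 WT and 8227 and 8478 in P8 cKO. It was thus higher with the label cKO at P1 (7 of 8 markers called) and lower at P6 (6 of 8) and P8 (7 of 8). The sum of 9 microglia markers, none at 0, ran from 3640 to 3649 CPM in P1 WT, 3031 to 3128 in P1 cKO, 2900 to 3017 in P6 WT, 3141 to 3228 in P6 cKO, 2595 to 2696 in P8 WT and 5414 to 5435 in P8 cKO, where 6 of 9 were called higher and 1 lower. Other lists held 3 of 11 neuron, 9 of 10 oligodendrocyte lineage, 5 of 8 endothelial, 6 of 8 mural, 5 of 7 ependymal and choroid plexus, 6 of 7 neural stem cell and 6 of 6 proliferation markers in the table, none at 0 in all libraries. Of these the neural stem cell sum stood at 3719 and 3846 CPM in P6 WT against 6302 and 6144 in P6 cKO (3 of 6 higher and 1 lower), and the endothelial sum at 150 and 163 CPM in P8 WT against 44.3 and 42.8 in P8 cKO, where 2 of 5 were called higher and 2 lower and *Cdh5* alone took 125 and 141 CPM against 10.1 and 9.59. The sum of the 3 neuron markers stood at 125 and 116 CPM in P6 WT against 249 and 232 in P6 cKO, and at 68.5 and 65.2 in P8 WT against 176 and 178 in P8 cKO, with 2 of 3 called higher at both ages. *Stmn2* alone took 105 and 97.8 CPM of it in P6 WT against 228 and 211 in P6 cKO. At P8 *Stmn2* took 50.2 and 49.5 CPM in WT against 151.5 and 152.5 in cKO. In RNA from whole cultures, fewer cells of a type and less RNA per cell cannot be told apart. The part of these marker differences in the results below was not tested.

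The share of guidance genes that differed between the labels grew from P1 to P8, and the balance turned from higher to lower with the label cKO. To be called, a gene had to change 1.5-fold or more with an adjusted p under 0.05 in edgeR's quasi-likelihood test (adjustment by Benjamini-Hochberg over the 17938 genes left by its filter on low counts). All 63 members passed that filter and had a count in every library. At P1, 8 members were higher and 1 lower in the libraries labelled cKO, 14.3% of the members against 4.9% of all genes tested. At P6, 12 were higher and 15 lower (42.9% against 13.5% of all genes), and at P8, 11 were higher and 23 lower (54% against 19.6% of all genes). By direction, 4.01% of all genes were higher and 0.892% lower at P1, 7.16% higher and 6.38% lower at P6, and 11.2% higher and 8.37% lower at P8. In each called difference the values of the labels did not overlap. With 2 libraries a label this adds little to a call. Called or not, the labels overlapped for only 10, 10 and 5 of the 63 members at P1, P6 and P8. The share over all genes was not counted. In order of age, the median log2 fold change of the members was 0.19, -0.10 and -0.07, against 0, 0 and 0.01 for all genes. The median of its size was 0.29, 0.56 and 0.79, against 0.18, 0.27 and 0.33 for all genes. Most of the members lower at P8 were ligands. Of 35 ligands, 5 were higher at P1, 5 were higher and 9 lower at P6, and 7 were higher and 16 lower at P8. Of 27 receptors, the higher and lower ones numbered 3 and 1, then 7 and 6, then 4 and 7 in order of age.

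**Figure D1:**
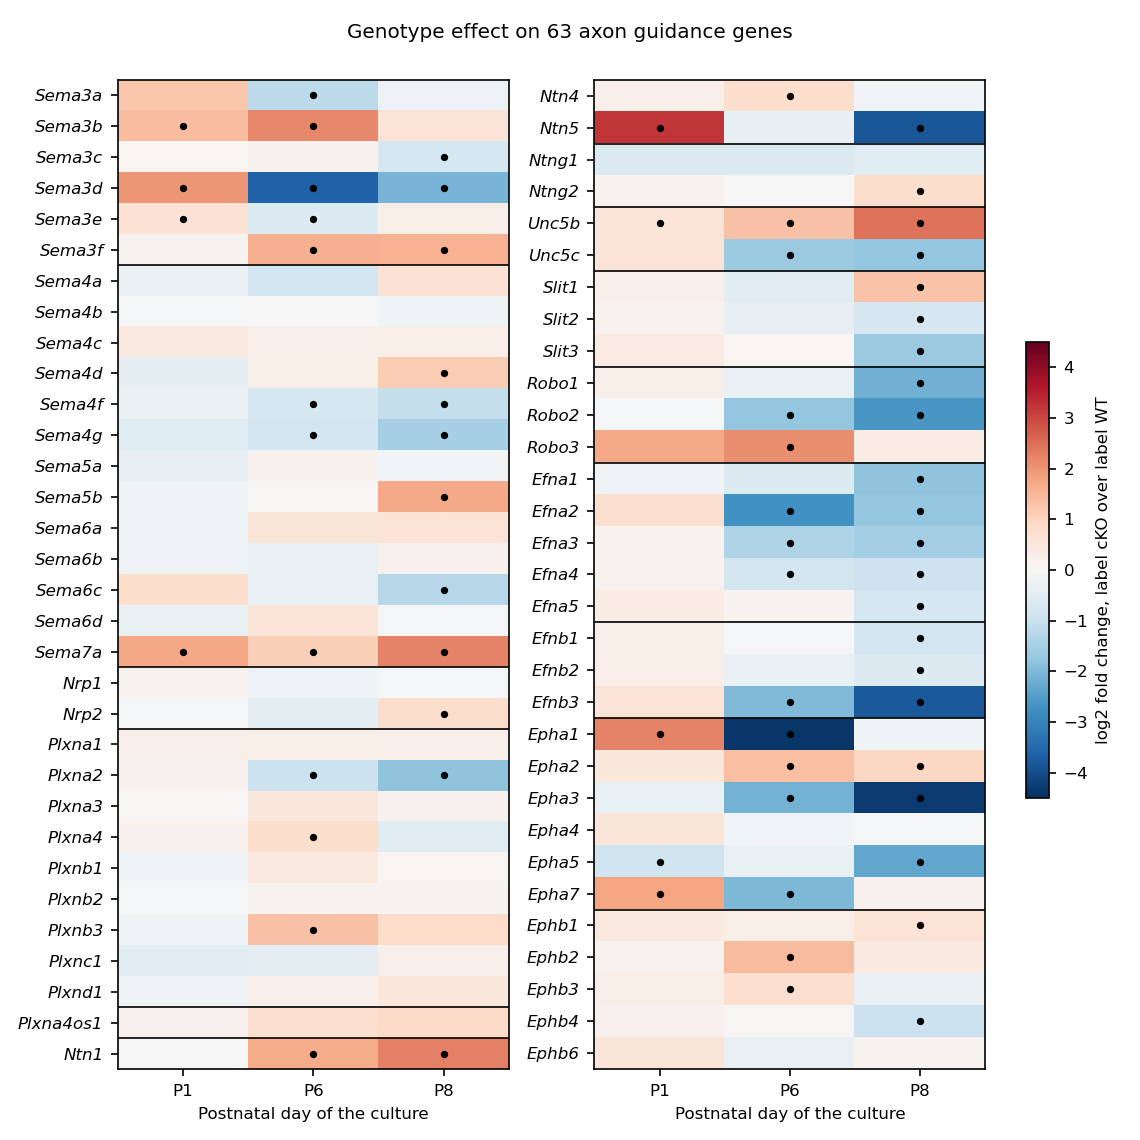
Colour shows the log2 fold change of each of the 63 members of label cKO over label WT (columns: P1, P6 and P8; red higher and blue lower with the label cKO; rows grouped by family), and a dot marks a called difference. Most dots lie in the P6 and P8 columns, and all 8 ephrins are blue with a dot at P8.

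In all, 45 of the 63 members were called at 1 or more time points, as were 26.2% of all genes. Called higher with the label cKO at all 3 time points were 2 members, *Sema7a* and *Unc5b* (1.1% of all genes). Counting these, 5 members were higher at both P6 and P8 (3.8% of all genes), and 11 were lower at both (3.16% of all genes). Higher at one time point and lower at another were 5 members, *Epha1*, *Epha7*, *Sema3d*, *Sema3e* and *Ntn5* (2.62% of all genes). The comparison of the genotype effect between time points uses the same libraries again. By the interaction term, called on the adjusted p alone, 35 members had an effect at P6 unlike that at P1 (15.3% of all genes), 34 an effect at P8 unlike that at P6 (21.5%) and 42 an effect at P8 unlike that at P1 (25.7%). The later effect was the lower one for 21 of the first (8.19% of all genes), 20 of the next (8.83%) and 28 of the last (11.7%).

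Netrin-1 and its repulsive receptor *Unc5b* were both higher with the label cKO at P6 and P8, whereas the related receptor *Unc5c* was lower. *Ntn1* (ENSMUSG00000020902, chromosome 11, 68209364 to 68400823) encodes the founding secreted netrin. It had 192 and 190.1 CPM with the label WT and 199 and 184 with the label cKO at P1, 180.1 and 173 in P6 WT against 569 and 565 in P6 cKO, and 40.0 and 36.6 in P8 WT against 182 and 185 in P8 cKO. The labels overlapped at P1, and both cKO libraries were far above both WT libraries at P6 and P8. The log2 fold change was 1.68 at P6 (standard error, SE, 0.054; adjusted p = 6.15e-08 from edgeR) and 2.26 at P8 (SE 0.056, adjusted p = 8.92e-09). *Unc5b* (ENSMUSG00000020099, chromosome 10, 60762593 to 60831581) had 13.3 and 10.1 CPM with the label WT and 16.0 and 19.1 with the label cKO at P1, 32.6 and 27.9 in P6 WT against 80.0 and 72.0 in P6 cKO, and 14.1 and 12.8 in P8 WT against 72.1 and 75.9 in P8 cKO. Its cKO libraries were the higher ones each time, and the distance widened with age. In order of age its log2 fold change was 0.59, 1.33 and 2.46 (SE 0.15, 0.15 and 0.15, adjusted p = 0.0377, 0.000157 and 2.32e-06 from edgeR). The P1 call of *Unc5b* was fragile. It was lost with the P1 libraries fitted alone (adjusted p = 0.152), on leaving out replicate 2 of P1 WT (0.190) or of P1 cKO (0.194), and without any of the 4 P8 libraries (0.0527 to 0.0621).

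*Unc5c* (ENSMUSG00000059921, chromosome 3, 141465216 to 141834924) rose with age in the libraries labelled WT and stayed far lower in the others. It had 11.1 and 11.6 CPM with the label WT and 17.1 and 16.9 with the label cKO at P1, 62.9 and 54.7 in P6 WT against 17.8 and 19.3 in P6 cKO, and 109 and 101 in P8 WT against 29.3 and 33.0 in P8 cKO. The cKO libraries were thus above at P1 and far below at P6 and P8, with log2 fold change -1.66 at P6 and -1.75 at P8 (SE 0.095 and 0.095, adjusted p = 2.16e-06 and 9.68e-07 from edgeR). Its P1 value of 0.58 lay just under the fold-change threshold. That value was past the threshold without P1 WT replicate 2 (0.62) or P1 cKO replicate 2 (0.59). The exons of *Unc5c* overlap those of the antisense RNA *Gm15688*, and how counting treated strand is unknown here. *Ntn4*, a netrin of basement membranes, was called only at P6, with 109 and 115 CPM with the label WT and 197 and 189 with the label cKO (log2 fold change 0.79 ± 0.064 SE, adjusted p = 2.25e-05 from edgeR).

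*Ntn5* was the weakest expressed netrin. Its counts were 7 and 5 in P1 WT, 43 and 52 in P1 cKO, 44 and 74 in P6 WT, 62 and 28 in P6 cKO, 112 and 303 in P8 WT and 9 and 25 in P8 cKO. The cKO libraries were above at P1 and below at P8, and the labels overlapped at P6. The log2 fold change was 3.21 at P1 (SE 0.70, adjusted p = 0.0205 from edgeR) and -3.83 at P8 (SE 0.65, adjusted p = 0.00145). The P1 call was lost without any of the 4 P1 libraries (adjusted p = 0.0518 to 0.140) and with the P1 libraries fitted alone (0.0540), and the P8 value moved to -3.14 without P8 WT replicate 2 and to -4.61 without P8 cKO replicate 2. The exons of *Ntn5* overlap those of *Sec1* on the other strand. Of the netrin-G ligands, which are anchored in the membrane of axons, *Ntng1* was called at no time point. *Ntng2* had 5.25 and 5.22 CPM with the label WT and 8.70 and 9.23 with the label cKO at P8, both cKO libraries being higher (log2 fold change 0.78 ± 0.14 SE, adjusted p = 0.00237 from edgeR). Its exons overlap those of *6530402F18Rik* on the same strand.

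The Slit ligands *Slit2* and *Slit3* and the receptors *Robo1* and *Robo2* were lower with the label cKO at P8. *Robo2* (ENSMUSG00000052516, chromosome 16, 73891839 to 74411825) had 22.7 and 21.2 CPM with the label WT and 18.4 and 23.6 with the label cKO at P1, 48.4 and 49.5 in P6 WT against 15.2 and 14.0 in P6 cKO, and 90.1 and 98.4 in P8 WT against 15.6 and 14.8 in P8 cKO. The WT libraries climbed with age and the cKO libraries did not, so that overlapping values at P1 gave way to clear separation. The log2 fold change was -1.74 at P6 and -2.64 at P8 (SE 0.12 and 0.12, adjusted p = 6.05e-06 and 2.93e-07 from edgeR). *Robo1* (ENSMUSG00000022883, chromosome 16, 72308306 to 73046095) had 41.1 and 41.1 CPM with the label WT and 49.6 and 48.1 with the label cKO at P1, 87.1 and 69.4 in P6 WT against 61.0 and 63.5 in P6 cKO, and 180.2 and 187 in P8 WT against 39.7 and 41.7 in P8 cKO. Here the separation came at P8 (log2 fold change -2.17 ± 0.10 SE, adjusted p = 2.69e-07 from edgeR), and the genotype effect differed between P8 and P6 by -1.84 on the log2 scale (adjusted p = 1.47e-05).

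*Slit3* (ENSMUSG00000056427, chromosome 11, 35121224 to 35708507) is a secreted Slit ligand. It had 61.9 and 62.0 CPM with the label WT and 75.8 and 84.1 with the label cKO at P1, 153 and 135 in P6 WT against 152 and 150.4 in P6 cKO, and 423 and 421 in P8 WT against 133 and 133 in P8 cKO. Only at P8 were the cKO libraries lower, with log2 fold change -1.67 (SE 0.067, adjusted p = 1.43e-07 from edgeR). *Slit2* had 415 and 540.4 CPM with the label WT and 266 and 305 with the label cKO at P8 (log2 fold change -0.74 ± 0.12 SE, adjusted p = 0.00106 from edgeR), and without P8 WT replicate 2, the highest library, the value of -0.54 fell under the fold-change threshold. *Slit1* went the other way, with 1.73 and 2.35 CPM with the label WT and 4.60 and 5.43 with the label cKO (log2 fold change 1.29 ± 0.22 SE, adjusted p = 0.00144 from edgeR). *Robo3*, whose product modulates Slit responses, was low throughout. At P6 it had 0.568 and 1.30 CPM with the label WT and 5.12 and 2.92 with the label cKO, a log2 fold change of 2.10 (SE 0.47, adjusted p = 0.00967 from edgeR). That call was lost without P6 WT replicate 1 (adjusted p = 0.0568) or P6 cKO replicate 1 (0.0623), and the value became 2.81 without P6 WT replicate 2. The fibroblast marker sum was lower with the label cKO at P8 as well (8227 and 8478 against 26256 and 26142 CPM), and its part in the Slit and Robo differences was not tested.

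**Figure D2:**
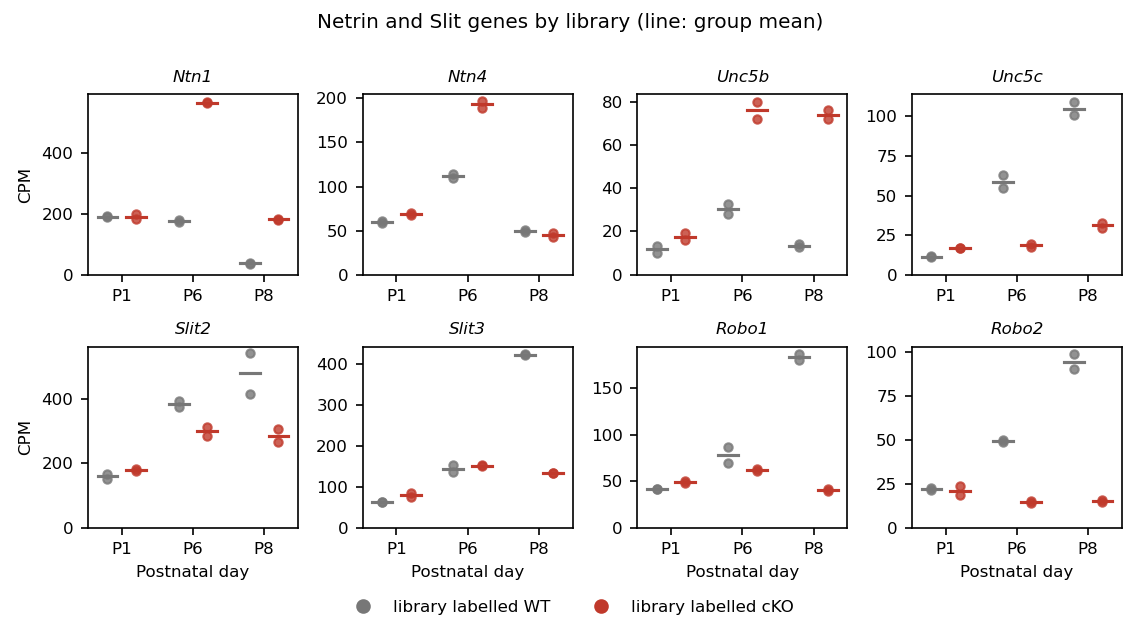
CPM of 8 netrin and Slit pathway genes in each of the 12 libraries (x axis: postnatal day; grey: labelled WT; red: labelled cKO; line: mean of the 2 libraries). At P8 the red points of *Ntn1* and *Unc5b* lie above the grey points, and those of *Unc5c*, *Slit2*, *Slit3*, *Robo1* and *Robo2* lie below them.

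Among the class 3 semaphorins, which are secreted and mostly repellent, *Sema3b* and *Sema3f* were higher with the label cKO and *Sema3d* crossed from higher to lower. *Sema3b* (ENSMUSG00000057969, chromosome 9, 107597674 to 107609229) had 25.4 and 24.0 CPM with the label WT and 63.2 and 66.0 with the label cKO at P1, 36.0 and 37.0 in P6 WT against 167 and 157 in P6 cKO, and 21.6 and 20.0 in P8 WT against 32.2 and 29.4 in P8 cKO. The cKO libraries were the higher ones at each age, most clearly at P6. The log2 fold change was 1.39 at P1 and 2.15 at P6 (SE 0.073 and 0.074, adjusted p = 4.29e-06 and 9.82e-08 from edgeR), and the 0.57 of P8 lay just under the fold-change threshold. *Sema3f* (ENSMUSG00000034684, chromosome 9, 107681500 to 107710475) had 36.6 and 42.4 CPM with the label WT and 43.9 and 42.4 with the label cKO at P1, 33.7 and 39.0 in P6 WT against 113 and 109 in P6 cKO, and 16.6 and 13.7 in P8 WT against 47.1 and 42.5 in P8 cKO. Its libraries overlapped at P1 and were separated later, with log2 fold change 1.61 at P6 and 1.56 at P8 (SE 0.12 and 0.12, adjusted p = 1.15e-05 and 8.38e-06 from edgeR). *Sema3b* and *Sema3f* are neighbours on chromosome 9.

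*Sema3d* (ENSMUSG00000040254, chromosome 5, 12383385 to 12588948) had 0.771 and 1.11 CPM with the label WT and 4.34 and 3.21 with the label cKO at P1, 50.9 and 48.7 in P6 WT against 4.58 and 3.39 in P6 cKO, and 94.8 and 93.5 in P8 WT against 22.8 and 20.9 in P8 cKO. It was nearly silent at P1 in the WT libraries and became abundant there by P6, whereas the cKO libraries stayed low until P8. On the log2 scale the cKO libraries differed by 1.99 at P1, -3.64 at P6 and -2.11 at P8 (SE 0.21, 0.20 and 0.18, adjusted p = 0.000400, 1.56e-06 and 2.02e-05 from edgeR). *Sema3e* turned in the same way on a smaller scale, with 15.0 and 16.8 CPM with the label WT and 25.5 and 24.8 with the label cKO at P1 and 107 and 100.3 in P6 WT against 67.4 and 69.1 in P6 cKO. Its log2 fold change was 0.66 at P1 and -0.60 at P6 (adjusted p = 0.000716 and 0.000339 from edgeR), close to the threshold on fold change, and fell under it without P1 WT replicate 1 (0.58) and without P6 WT replicate 1 (-0.56). The sum of the fibroblast markers was likewise higher with the label cKO at P1 and lower at P6. At P6 it was 2647 and 2468 CPM in cKO against 6577 and 6639 in WT. *Col1a1* and *Col1a2* made up most of it, and single markers differed by unlike amounts. *Col3a1* had 1212 and 1206 CPM in P6 WT against 22.8 and 25.9 in P6 cKO. *Col1a1* had 2727 and 2719 against 1609 and 1479, and *Postn* had 65.1 and 64.8 against 72.8 and 69.0. The part of these markers in the course of *Sema3d* and *Sema3e* was not tested.

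*Sema3c*, one of the most abundant members, had 397 and 393 CPM with the label WT and 227 and 230.0 with the label cKO at P8 (log2 fold change -0.79 ± 0.047 SE, adjusted p = 1.89e-06 from edgeR). It showed no called difference earlier. *Sema3a*, the classical repellent of sensory axons, had 47.7 and 25.4 CPM with the label WT and 15.7 and 16.3 with the label cKO at P6. The WT libraries were far apart, and the log2 fold change of -1.19 (SE 0.37, adjusted p = 0.0449 from edgeR) was -0.67 without P6 WT replicate 1 (adjusted p = 0.288). The P6 call was also lost with the replicate number as a block (0.0609), without either P6 cKO library (0.160 and 0.141), without any of the 4 P1 libraries (0.0559 to 0.0612) and without either P8 cKO library (0.0540 and 0.0541). At P1 the cKO libraries of *Sema3a* were the higher ones, with 3.97 and 2.97 CPM in P1 WT against 7.77 and 8.65 in P1 cKO (log2 fold change 1.25). That difference was not called in edgeR (adjusted p = 0.0913), but it was in DESeq2 (0.0388), with the P1 libraries fitted alone (0.0326) and without either P8 WT library (0.0448 each).

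Of the 13 membrane-bound semaphorins, 1 was called at P1 (4.9% of all genes), 3 at P6 (13.5%) and 6 at P8 (19.6%). *Sema7a* (ENSMUSG00000038264, chromosome 9, 57940112 to 57962865), the lipid-anchored member that promotes axon growth through integrins, was the one called at each age. It had 9.02 and 9.73 CPM with the label WT and 32.1 and 30.9 with the label cKO at P1, 43.7 and 46.3 in P6 WT against 98.5 and 92.7 in P6 cKO, and 5.33 and 6.09 in P8 WT against 27.1 and 26.3 in P8 cKO. Both labels peaked at P6 and the cKO libraries were the higher ones throughout, with log2 fold change 1.75, 1.09 and 2.22 (SE 0.085, 0.082 and 0.087, adjusted p = 2.62e-06, 1.49e-05 and 1.22e-07 from edgeR). *Sema4d*, a ligand of plexin-B1, had 117 and 117 CPM with the label WT and 89.5 and 85.9 with the label cKO at P1, and 90.1 and 79.6 in P8 WT against 187 and 184 in P8 cKO. It was called higher with the label cKO at P8 (log2 fold change 1.13 ± 0.064 SE, adjusted p = 1.35e-06 from edgeR), and the effect differed between P8 and P1 by 1.54 on the log2 scale (adjusted p = 2.46e-06). Microglia, whose marker sum was 5414 and 5435 CPM in these P8 libraries against 2696 and 2595, are known to express *Sema4d*, and the part of that difference was not tested.

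*Sema5b* had 12.3 and 15.7 CPM with the label WT and 15.1 and 14.0 with the label cKO at P6, and 1.70 and 1.39 in P8 WT against 4.41 and 5.58 in P8 cKO. It dropped in both labels between these ages, and less far in the cKO libraries (log2 fold change at P8 1.70, SE 0.17, adjusted p = 5.11e-05 from edgeR). *Sema4f* and *Sema4g* were lower with the label cKO at P6 (log2 fold change -0.79 and -0.85) and P8 (-1.06 and -1.48), and *Sema6c* at P8 (-1.29). The P6 call of *Sema4f* was lost without P6 WT replicate 1 (adjusted p = 0.105 from edgeR), without P6 cKO replicate 1 (0.121) and with the P6 libraries fitted alone (0.0817). That of *Sema6c* was lost without P8 WT replicate 1 (0.0758) and without P8 cKO replicates 1 (0.0615) or 2 (0.0865).

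**Figure D3:**
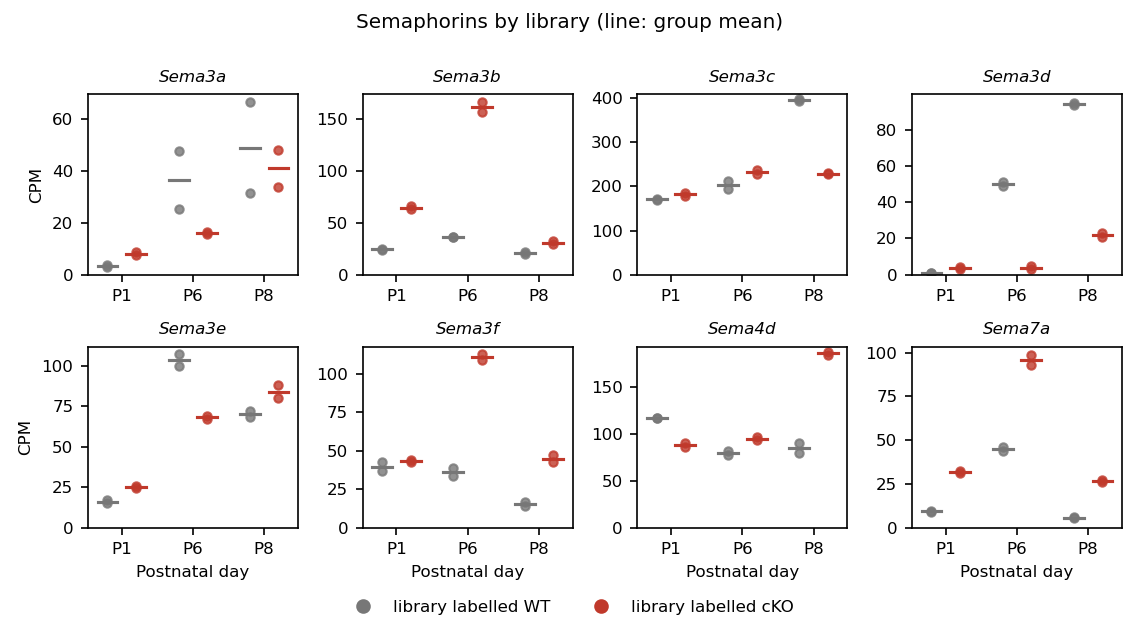
CPM of 8 semaphorins in each of the 12 libraries (x axis: postnatal day; grey: labelled WT; red: labelled cKO; line: mean of the 2 libraries). *Sema7a* is higher in red at each age, and *Sema3d* is far higher in grey at P6 and P8.

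Of the 9 plexins, the signalling receptors of the semaphorins, *Plxna2* was lower with the label cKO at P6 and P8, and *Plxna4* and *Plxnb3* were higher at P6. *Plxna2* (ENSMUSG00000026640, chromosome 1, 194618218 to 194816869) had 66.6 and 69.0 CPM with the label WT and 78.3 and 76.2 with the label cKO at P1, 237 and 213 in P6 WT against 112 and 119.7 in P6 cKO, and 350.3 and 360.2 in P8 WT against 102 and 99.8 in P8 cKO. The WT libraries rose with age and left the cKO libraries behind (log2 fold change -0.96 at P6 and -1.81 at P8, SE 0.059 and 0.061, adjusted p = 3.68e-06 and 4.60e-08 from edgeR). *Plxna4* was higher with the label cKO at P6, with 19.4 and 19.7 CPM against 34.1 and 33.5 (log2 fold change 0.79 ± 0.076 SE, adjusted p = 6.61e-05 from edgeR). Its exons overlap those of the antisense RNA *Plxna4os3*. *Plxnb3* had 1.07 and 1.83 CPM with the label WT and 3.37 and 3.87 with the label cKO at P6, the latter being higher (log2 fold change 1.32 ± 0.34 SE, adjusted p = 0.0187 from edgeR). This call was lost leaving out P6 WT replicate 1 (adjusted p = 0.112) or P6 cKO replicate 2 (0.0790). *Nrp2*, the neuropilin that binds SEMA3F, had 348 and 315 CPM with the label WT and 228 and 256 with the label cKO at P6, and 337 and 354 in P8 WT against 598 and 601 in P8 cKO. The order of the labels reversed between these ages. The P6 value of -0.46 lay under the fold-change threshold, and the P8 difference was called (log2 fold change 0.80 ± 0.066 SE, adjusted p = 1.50e-05 from edgeR). *Nrp1*, which pairs with SEMA3A, was called at no time point.

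All 8 ephrins were called lower with the label cKO at P8 (8.37% of all genes), 4 of them already at P6 (6.38% of all genes). At P1, 0 of 8 were called in edgeR or in DESeq2, and 2 had an adjusted p below 0.05 in edgeR without a 1.5-fold change. An unadjusted p below 0.05 in edgeR was found for 4, 1 of these (*Efna2*) with a 1.5-fold change, as had 8.86% of all genes. The median log2 fold change at P1 was 0.17 for the ephrin-As and 0.29 for the ephrin-Bs, toward higher with the label cKO. *Efnb3* (ENSMUSG00000003934, chromosome 11, 69554092 to 69560205), a transmembrane ephrin known as a midline barrier to corticospinal axons, differed most. It had 2.03 and 1.40 CPM with the label WT and 2.24 and 2.90 with the label cKO at P1, 2.81 and 3.77 in P6 WT against 1.05 and 0.607 in P6 cKO, and 12.7 and 12.9 in P8 WT against 1.06 and 0.796 in P8 cKO. Its libraries lay close together at P1 (log2 fold change 0.59, adjusted p = 0.309 from edgeR), and the cKO libraries were the lower ones later, with log2 fold change -1.99 at P6 and -3.79 at P8 (SE 0.32 and 0.33, adjusted p = 0.00150 and 2.02e-05 from edgeR). *Efnb1* had 81.3 and 82.0 CPM with the label WT and 45.3 and 44.8 with the label cKO at P8 (log2 fold change -0.86), and *Efnb2*, also a ligand of EPHB4 in vessels, had 162 and 169 against 112 and 102 (log2 fold change -0.63). Without P8 cKO replicate 2 the value of *Efnb2* was -0.57, under the fold-change threshold, which left 7 of 8 ephrins called. It was 8 with any other single library left out and under each other setting tried.

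The ephrin-As are held to the membrane by a lipid anchor. *Efna2* had 4.21 and 3.87 CPM with the label WT and 0.792 and 0.420 with the label cKO at P6, and 7.16 and 8.66 in P8 WT against 2.51 and 2.18 in P8 cKO. *Efna3* had 21.4 and 24.5 CPM with the label WT and 8.53 and 9.02 with the label cKO at P6, and 20.0 and 21.8 in P8 WT against 7.94 and 6.70 in P8 cKO. Both were clearly separated by label, with log2 fold change -2.73 and -1.76 for *Efna2* and -1.39 and -1.51 for *Efna3* at P6 and P8 (adjusted p = 0.000146, 0.000895, 0.000538 and 0.000203 from edgeR). *Efna4* was lower at both ages too (-0.83 and -0.94). *Efna1* had 5.90 and 6.12 CPM with the label WT and 1.30 and 2.09 with the label cKO at P8 (log2 fold change -1.82 ± 0.35 SE, adjusted p = 0.00311 from edgeR). *Efna5*, the most abundant ephrin-A per kilobase, had 64.1 and 64.6 CPM with the label WT and 37.1 and 37.3 with the label cKO at P8 (log2 fold change -0.79 ± 0.06 SE, adjusted p = 8.89e-06 from edgeR). The exons of *Efna3* and *Efna4* overlap those of antisense RNAs. At P8 the astrocyte and fibroblast marker sums were lower with the label cKO along with the ephrins (772 and 754 against 1652 and 2042 CPM, and 8227 and 8478 against 26256 and 26142 CPM), and their part was not tested.

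**Figure D4:**
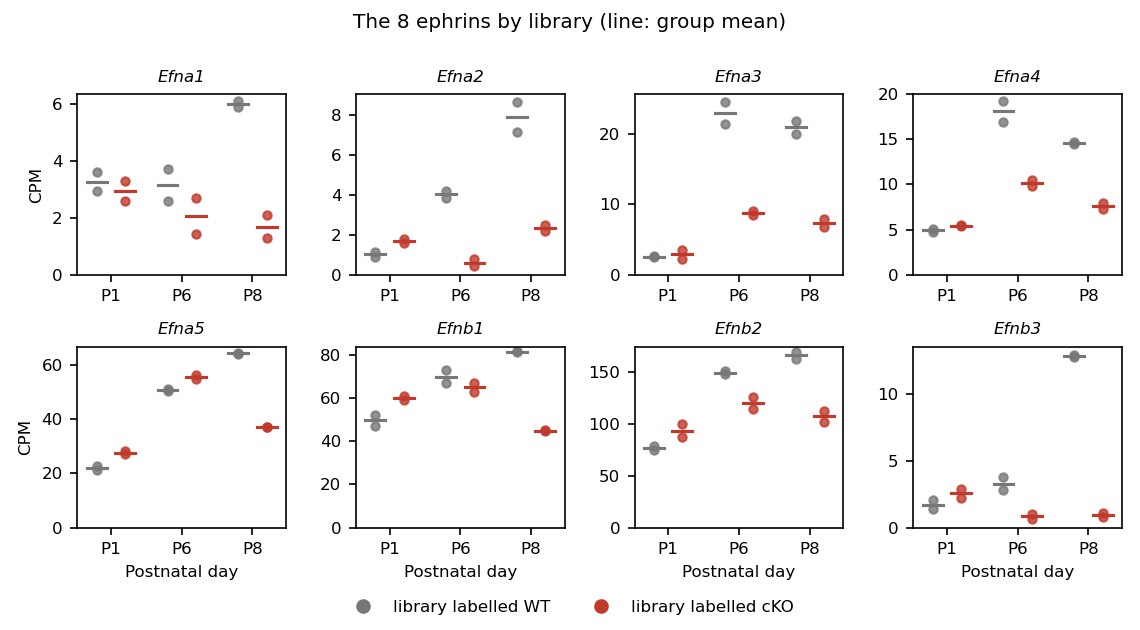
CPM of the 8 ephrins in each of the 12 libraries (x axis: postnatal day; grey: labelled WT; red: labelled cKO; line: mean of the 2 libraries). At P8 both red points of each ephrin lie below both grey points, and at P1 the labels lie close together.

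The largest differences of all members were those of the ephrin receptors *Epha1* at P6 and *Epha3* at P8, both lower with the label cKO. *Epha3* (ENSMUSG00000052504, chromosome 16, 63543534 to 63864175) had 3.79 and 3.93 CPM with the label WT and 4.42 and 1.69 with the label cKO at P1, 6.71 and 6.25 in P6 WT against 1.37 and 1.57 in P6 cKO, and 153 and 153 in P8 WT against 8.50 and 6.92 in P8 cKO. The WT libraries jumped between P6 and P8, and the cKO libraries rose far less. The P1 cKO libraries lay apart, and without replicate 1 of them the P1 difference was called (-1.20, adjusted p = 0.00342 from edgeR). With all libraries the log2 fold change was -2.14 at P6 and -4.31 at P8 (SE 0.35 and 0.35, adjusted p = 0.00166 and 1.24e-05 from edgeR). *Epha5* had 8.25 and 10.03 CPM with the label WT and 4.18 and 5.58 with the label cKO at P1, 14.4 and 14.6 in P6 WT against 9.35 and 13.4 in P6 cKO, and 20.1 and 22.1 in P8 WT against 4.76 and 3.67 in P8 cKO. The cKO libraries were lower each time, and the difference was called at P1 (-0.91, adjusted p = 0.0286 from edgeR) and at P8 (-2.32, SE 0.22, adjusted p = 3.39e-05). The P1 call, the one fall at that age, was lost when either P1 WT library (0.0552 and 0.152) or replicate 1 of P1 cKO (0.169) was left out, and with the P1 libraries fitted alone (0.0720).

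*Epha1* (ENSMUSG00000029859, chromosome 6, 42358487 to 42373268) and *Epha7* (ENSMUSG00000028289, chromosome 4, 28813131 to 28967499) were higher with the label cKO at P1, lower at P6 and not called at P8. *Epha1* had 0.134 and 0.160 CPM with the label WT and 0.544 and 0.860 with the label cKO at P1, 14.5 and 12.7 in P6 WT against 0.746 and 0.545 in P6 cKO, and 9.22 and 9.50 in P8 WT against 8.16 and 8.14 in P8 cKO. It rose between P1 and P6 in the WT libraries and between P6 and P8 in the cKO libraries. Its log2 fold changes in order of age were 2.23, -4.39 and -0.20 (SE 0.29, 0.23 and 0.20, adjusted p = 0.00135, 1.43e-06 and 0.488 from edgeR). The P1 counts were 8 and 13 against 32 and 49, and the call was lost with the P1 libraries fitted alone (adjusted p = 0.105). The exons of *Epha1* overlap those of *Zyx* on the other strand. *Epha7* had 3.47 and 4.42 CPM with the label WT and 13.8 and 13.1 with the label cKO at P1, 20.9 and 17.9 in P6 WT against 4.37 and 5.10 in P6 cKO, and 26.9 and 24.3 in P8 WT against 27.6 and 31.1 in P8 cKO. In the cKO libraries it was lowest at P6, where the WT libraries were high. It differed by a log2 fold change of 1.76 at P1 and -2.04 at P6 (SE 0.15 and 0.15, adjusted p = 8.92e-05 and 1.13e-05 from edgeR). *Epha2*, an EphA receptor of epithelia and proliferating cells, went the other way, with 72.3 and 68.9 CPM with the label WT and 187 and 169.6 with the label cKO at P6, and 25.2 and 27.9 in P8 WT against 51.1 and 50.3 in P8 cKO. Its cKO libraries were the higher ones, with log2 fold change 1.34 and 0.93 (SE 0.073 and 0.073, adjusted p = 1.64e-06 and 1.10e-05 from edgeR).

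Of the 5 EphB receptors, 2 were called at P6 (13.5% of all genes) and 2 at P8 (19.6%). *Ephb2*, a receptor with roles at synapses and in midline crossing, had 142 and 138 CPM with the label WT and 161 and 152 with the label cKO at P1, 44.3 and 45.8 in P6 WT against 121 and 119 in P6 cKO, and 29.3 and 34.9 in P8 WT against 40.2 and 45.8 in P8 cKO. It had dropped by P6 in the WT libraries and by P8 in the cKO libraries, and the difference was called at P6 (log2 fold change 1.41 ± 0.09 SE, adjusted p = 4.37e-06 from edgeR). *Ephb4*, the receptor of veins, had 72.2 and 74.5 CPM with the label WT and 37.6 and 37.2 with the label cKO at P8 (log2 fold change -0.97 ± 0.07 SE, adjusted p = 5.94e-06 from edgeR). Its exons overlap those of *Zan* by a short stretch on the other strand. Smaller rises were called for *Ephb3* at P6 (0.76) and *Ephb1* at P8 (0.60). The value of *Ephb3* fell under the fold-change threshold without P6 cKO replicate 1 (0.55). The call of *Ephb1* was lost with DESeq2's size factors (0.58), in DESeq2 (0.58), with the P8 libraries fitted alone (adjusted p = 0.0619 from edgeR), and without P8 WT replicate 2 (0.112) or P8 cKO replicate 2 (0.102).

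**Figure D5:**
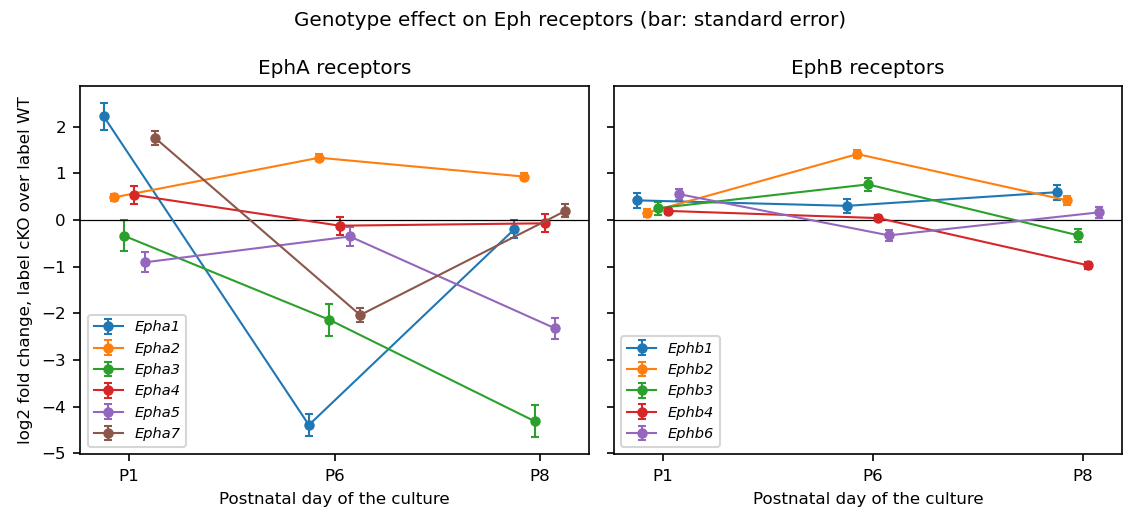
Log2 fold change of label cKO over label WT (y axis) at P1, P6 and P8 (x axis) for the 6 EphA and 5 EphB receptors, with the SE from edgeR as bars and lines joining the values of a gene. *Epha1* runs from 2.23 over -4.39 to -0.20, *Epha3* falls to -4.31 at P8, and the EphB values stay between -0.97 and 1.41.

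To compare levels between genes, CPM was divided by kilobases of exon, counting the exons of all annotated transcripts of a gene together. By this measure *Plxnb2* was the highest member, with a mean over the 12 libraries of 103 CPM per kilobase. It was followed by *Ntn1* (35.8), *Plxna1* (35.8), *Sema3c* (33.0), *Nrp2* (31.7) and *Slit3* (27.3). In each library *Plxnb2* was above *Ntn1*, although their ranges met (83.9 to 121 and 5.82 to 90.6), and the ranges of *Ntn1*, *Plxna1*, *Sema3c*, *Nrp2* and *Slit3* overlapped. By the same mean, the leading members of the other families were *Sema4d* (14.1), *Efnb1* (18.0), *Efna5* (10.7), *Epha2* (15.4), *Ephb4* (8.80), *Unc5b* (5.94), *Robo1* (4.59) and *Ntng2* (2.27), and the lowest member of all was *Robo3* (0.281). Within families this order changed between groups. In P6 cKO, *Sema7a* averaged 29.0 CPM per kilobase and *Sema4d* 12.3. In P1 WT, *Ephb2* averaged 11.1 and *Ephb4* 5.62, and in P8 WT *Epha3* averaged 17.6 and *Epha2* 5.69. *Efnb2* (12-library mean 17.3) was close to *Efnb1*, with overlapping ranges. The order also depends on the exon length used. *Slit2* had a 12-library mean of 297 CPM over 25433 bases of exon, or 11.7 CPM per kilobase. *Slit3* had 165 CPM over 6067 bases, or 27.3 per kilobase. *Plxnb2* was called at no time point. It had 695 and 712 CPM with the label WT and 648 and 668 with the label cKO at P1, 827 and 784 in P6 WT against 935 and 879 in P6 cKO, and 815 and 815 in P8 WT against 889 and 869.6 in P8 cKO. Including it, 18 members were called at no time point, with log2 fold changes between -0.86 and 0.85. They included 6 of the 9 plexins, *Nrp1*, *Ntng1*, *Epha4*, *Ephb6*, *Plxna4os1* and 7 membrane-bound semaphorins. A difference under the threshold does not show that the labels were alike. *Epha4*, the broadest binding of the Eph receptors, had 62.1 and 36.6 CPM with the label WT and 70.6 and 72.7 with the label cKO at P1, and without P1 WT replicate 1 its difference was called (0.97, adjusted p = 0.00131 from edgeR).

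With age, most members that changed in the libraries labelled WT rose between P1 and P6. Of 38 called (23.1% of all genes), 30 rose and 8 fell, against 12.2% and 10.9% of all genes. Among members with a mean of at least 1 CPM, the largest rises were those of *Epha1* (log2 fold change 6.50), *Sema3d* (5.71), *Sema3a* (3.40) and *Efna3* (3.15). Their adjusted p was 1.29e-07, 7.99e-08, 0.000159 and 1.99e-06 from edgeR. *Ntn5*, below that mean, was also called, rising from 0.117 and 0.0614 CPM in P1 WT to 0.694 and 1.08 in P6 WT. The largest falls were those of *Plxna4os1* (-2.90), *Sema4a* (-2.70), *Ephb2* (-1.64) and *Plxnb3* (-1.10), with adjusted p = 0.000328, 6.98e-05, 7.29e-07 and 0.0277. That of *Plxna4os1* was -3.79 without P6 WT replicate 1, and that of *Plxnb3* lost its call without either P1 WT library (adjusted p = 0.101 and 0.0657) or without P6 WT replicate 1 (0.159). *Sema4a*, a semaphorin also used by immune cells, had 6.07 and 7.77 CPM in the P1 WT libraries, 1.18 and 0.949 in P6 WT and 5.26 and 5.55 in P8 WT, so that it was lowest at P6.

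From P6 to P8, 32 members changed in the libraries labelled WT (18.9% of all genes), 17 upward (8.66% of all genes) and 15 downward (10.3%). This step shares the P6 libraries with the one before. Among members with a mean of at least 1 CPM, *Epha3* (4.56), *Sema4a* (2.34), *Efnb3* (1.96) and *Slit3* (1.55) rose most (adjusted p = 1.03e-05, 0.000229, 0.000842 and 2.58e-07 from edgeR). *Ntn5*, below that mean, was also called with a rise of 1.78, which was 1.08 without P8 WT replicate 2. *Sema5b* (-3.19), *Sema7a* (-2.98), *Ntn1* (-2.21) and *Slit1* (-1.59) fell most (adjusted p = 1.10e-06, 3.26e-08, 1.35e-08 and 0.000463). The 4 that fell were all called higher with the label cKO at P8, a comparison that uses the same P8 WT libraries. The sum of the fibroblast markers rose over both steps in the WT libraries, to 26256 and 26142 CPM at P8, and its part in these changes was not tested. In the libraries labelled cKO, 26 members changed from P1 to P6 (21.4% of all genes), 19 upward (11% of all genes) and 7 downward (10.4%), and 31 changed from P6 to P8 (24% of all genes), 12 upward (11.9%) and 19 downward (12.2%).

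Co-receptors and intracellular partners of the guidance pathways also differed in both directions. Of a list of 56 such genes, 54 were in the table and all of these were tested, with 3 higher and 3 lower with the label cKO at P1, 4 higher and 8 lower at P6, and 8 higher and 10 lower at P8. These are 6, 12 and 18 of the 54, beside 4.9%, 13.5% and 19.6% of all genes. *Rnd1*, a small GTPase that binds plexins, had 30.8 and 32.4 CPM with the label WT and 145 and 126 with the label cKO at P6, and 11.97 and 10.3 in P8 WT against 28.6 and 27.9 in P8 cKO. Its cKO libraries were the higher ones at both ages (log2 fold change 2.10 and 1.35, adjusted p = 4.95e-07 and 5.24e-06 from edgeR). *Gap43*, a growth cone protein, had 26.6 and 26.3 CPM with the label WT and 15.5 and 14.9 with the label cKO at P1, and 87.7 and 92.1 in P8 WT against 11.2 and 10.8 in P8 cKO. It was called lower at both (log2 fold change -0.80 and -3.03, adjusted p = 0.000128 and 9.18e-09 from edgeR). At P6 its cKO libraries were lower too, with 13.0 and 12.6 CPM in P6 WT against 5.76 and 6.16 in P6 cKO. *Tiam1*, an exchange factor for Rac, had 4.69 and 3.63 CPM with the label WT and 6.53 and 7.93 with the label cKO at P1, and 39.0 and 42.5 in P6 WT against 6.18 and 7.41 in P6 cKO. It was called higher with the label cKO at P1 (0.80) and lower at P6 (-2.58). At P8 its cKO libraries were again the lower ones, with 76.5 and 84.6 CPM in P8 WT against 26.3 and 25.6 in P8 cKO. *Mical2*, a flavoprotein that oxidizes actin, was higher at P1 (0.91) and lower at P6 (-0.88). Also higher were the adhesion protein gene *Flrt1* at P6 (1.65) and the Rac GAP gene *Chn2* at P8 (1.55). The order of the labels was reversed for *Flrt1* at P8. Both cKO libraries were then below both WT libraries, with a mean of 4.748 CPM in P8 WT against 1.708 in P8 cKO. *Ngef*, an ephexin acting under EphA receptors, was lower at P1 (-1.10) and higher at P6 (0.86). Lower values were also called for *Crmp1*, a mediator of SEMA3A signalling, at P6 (-2.38, and -3.18 without P6 cKO replicate 2) and for *Draxin*, a secreted repellent and netrin partner, at P8 (-2.83). Several of these calls rested on single libraries. The P1 call of *Tiam1* was lost on leaving out replicate 2 of P1 WT (adjusted p = 0.0704 from edgeR) or of P1 cKO (0.0692), and with the P1 libraries fitted alone (0.1001). That of *Mical2* was lost when P1 WT replicate 2 (0.0742) or P1 cKO replicate 1 (0.0576) was left out, and that of *Ngef* when replicate 1 of P1 WT (0.117) or either P1 cKO library (0.0660 and 0.109) was left out, and with the P1 libraries fitted alone (0.0674). At P6 the call of *Ngef* was lost on leaving out any of the 4 P6 libraries (0.0515 to 0.125), and *Mical2* fell under the fold-change threshold when P6 WT replicate 1 was left out (-0.51).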

How the data were processed

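The authors deposited one table of raw RNA-seq read counts per gene and library, not normalized, for 12 libraries, 2 for each of 2 genotypes at 3 time points. Groups follow the labels. Reads had been aligned with HISAT2 to the mouse genome (mm10, also called GRCm38, in the submitters' notes). Counting program, annotation and strand setting: not given in the sources used here. The counts were fitted as deposited with edgeR 4.0.16, on limma 3.58.1 and R 4.3.3, using TMM normalization, filterByExpr with the 6 groups, 1 mean per group over all 12 libraries, and glmQLFTest with Benjamini-Hochberg adjustment over the 17938 genes left. A 1.5-fold change or more with an adjusted p under 0.05 made a call, and an interaction term on the adjusted p alone. Standard errors are the size of the log2 fold change over the square root of the test's F. The fits were tested on simulated data.

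Library totals were 54413504 to 89183250 counts, and with 2 libraries a group the spread is estimated over all groups. Counts of libraries of 1 group differed by more than sampling noise (chi-square per degree of freedom 30.5 to 47.1). Same-numbered libraries of different groups did not deviate together (15 correlations from -0.063 to 0.044), so the numbers were not taken to pair them. The alternatives were DESeq2's size factors, no filter, DESeq2 1.42.0, an unadjusted p, the replicate number as a block, the 4 libraries of a time point alone, and each library left out, where a library left alone in its group is assumed to vary like the others. Those for the partner list, *Zmynd8* and the ephrins at P8 were added after seeing the data.

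The members and the marker and partner lists were chosen with earlier results of these data known. Genes were named by a rule: the called members with the largest changes at each time point (10 each way), interaction (4) and WT step (4) at a mean of at least 1 CPM, the highest per length in each family, the other ligands and receptors of these pathways, and the 2 largest changes each way of the partner list. *Ntn5*, *Epha4* and members named for a call close to the threshold were added after their values were seen. Exon lengths and positions are those of GENCODE vM21 on GRCm38, and promoters those of RefSeq on GRCm38.p6.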

Additional observations from a re-analysis of the deposited data

Results flagged for a closer look

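The genotype effect, the log2 fold change of label cKO over label WT, differed between time points for members in every pathway. The values below are differences of that effect on the log2 scale, each past an adjusted p of 0.05 in edgeR's interaction test, and the terms share libraries with each other and with the comparisons above. Groups of 2 libraries were not tested for outliers. Only members with a mean of at least 1 CPM are listed below. *Ntn5*, below that mean, had terms of -3.57 from P1 to P6, -3.47 from P6 to P8 and -7.05 from P1 to P8. The term from P6 to P8 was -2.78 without P8 WT replicate 2.

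From P1 to P6 the effect moved upward for *Ntn1* (1.68), *Sema3f* (1.48), *Ephb2* (1.25) and *Sema6d* (0.91), a transmembrane semaphorin. It moved downward for *Epha1* (-6.62), *Sema3d* (-5.63), *Epha7* (-3.80) and *Efna2* (-3.44).

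From P6 to P8 the effect moved upward for *Epha1* (4.19), *Epha7* (2.23), *Slit1* (1.75) and *Sema5b* (1.65), and downward for *Epha3* (-2.17), *Epha5* (-1.97), *Robo1* (-1.84) and *Efnb3* (-1.80). The term of *Efnb3* (adjusted p = 0.0169 from edgeR) was past the threshold by little. It was lost without P6 WT replicate 1 (0.0553), P6 cKO replicate 1 (0.0649), P8 WT replicate 2 (0.0506) or P8 cKO replicate 2 (0.0665).

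From P1 to P8 the effect moved upward for *Ntn1* (2.26), *Sema5b* (1.90), *Unc5b* (1.87) and *Sema4d* (1.54), and downward for *Efnb3* (-4.37), *Sema3d* (-4.10), *Epha3* (-3.97) and *Robo2* (-2.57). The value of *Epha3* was -3.11 without P1 cKO replicate 1, since the P1 cKO libraries had 4.42 and 1.69 CPM.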

How the results depend on the processing

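Over the settings tried, 10503 of 10899 values of single members kept their side of the threshold, 250 lost a call and 146 gained one. Calls that turned to the opposite direction numbered 0. Changes of sign among values that were not called were left out of this count. The number of members lower with the label cKO at P1 was 1. It was 2 with an unadjusted p, 0 with the P1 libraries fitted alone, and 0 to 1 with each library left out, being 0 without either P1 WT library. The number of partner genes called at P1 was 6, and 3 with the P1 libraries fitted alone.

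With each library left out, the higher and lower members ranged over 7 to 9 and 0 to 1 at P1, 11 to 12 and 12 to 15 at P6, and 10 to 13 and 21 to 23 at P8. The interactions ranged over 29 to 33 for P6 against P1, 29 to 35 for P8 against P6 and 35 to 42 for P8 against P1. The time steps ranged over 34 to 39 and 28 to 33 in WT and 25 to 27 and 26 to 31 in cKO, the ephrins lower at P8 over 7 to 8, and the partner genes over 4 to 6, 9 to 13 and 17 to 19.

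When the replicate number entered as a block, 8 members were higher and 1 lower at P1, against 12 and 14 for P6 and 11 and 23 for P8. *Sema3a* at P6 was the one genotype call lost (adjusted p = 0.0609 from edgeR). Beyond it, the block lost *Ntng2* and *Plxnb1* among the terms of P8 against P1 (0.0679 and 0.0652) and *Ntn5* among the WT steps (0.0544). These libraries share only a number.

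At this depth few members were limited by counting. *Ntn5* and *Epha1* had fewer than 20 counts in the P1 WT libraries, where calls rest on few reads. With 2 libraries a group, values that miss the threshold remain undecided.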

Other observations

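The libraries labelled cKO had a time course of their own among the guidance genes. From P1 to P6, *Unc5b* (2.11), *Sema7a* (1.60), *Efna3* (1.59) and *Ntn1* (1.56) had the largest log2 rises, and *Sema4a* (-3.27), *Plxna4os1* (-2.34) and *Efnb3* (-1.63) the largest falls. *Sema4a* had 5.97 and 5.34 CPM in the P1 cKO libraries, 0.381 and 0.793 in P6 cKO and 7.87 and 8.94 in P8 cKO, with its low point at P6 as in the WT libraries. Without P6 cKO replicate 2 its fall was -3.89.

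From P6 to P8, *Sema3b* (-2.39) and *Ntn4* (-2.10) had the largest log2 falls among the members in the libraries labelled cKO. *Ntn4* had 197 and 189 CPM in P6 cKO and 42.8 and 47.5 in P8 cKO, against 109 and 115 in P6 WT and 48.3 and 50.6 in P8 WT. At P8 both cKO libraries of *Ntn4* lay slightly below both WT libraries, a difference that was not called. These steps share their libraries with the genotype comparisons, and these genes were named after their values were seen.

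The antisense RNA *Plxna4os1* was lowest at P6 with both labels. It had 5.28 and 6.45 CPM in P1 WT, 1.15 and 0.423 in P6 WT and 1.82 and 2.08 in P8 WT. Its levels were 6.63 and 6.74 CPM in P1 cKO, 1.42 and 1.23 in P6 cKO and 4.06 and 2.95 in P8 cKO.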
